A study of Mus musculus with 8 samples.

Results

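Subjective night was compared with subjective day in the suprachiasmatic nucleus (SCN) of mice that lack Gpr176. The comparison rests on 4 knockout arrays of the 8 in the study, 2 at circadian time 18 (CT18, subjective night) and 2 at circadian time 6 (CT6, subjective day), chosen by their titles. Differences are CT18 minus CT6 within the knockout on the log2 scale. They are available for 19938 genes, each read from the brightest of its probe sets with a single gene symbol, and 12452 of these genes were bright enough to be tested.

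The knockout mice had the genotype Gpr176-/- and the comparison mice were wild type, and both were of the C57BL/6J strain. They had lived under 12 h of light and 12 h of dark for more than 2 weeks before constant darkness, and CT6 and CT18 lie 6 h and 18 h after the time at which day would have begun. Each array carried SCN tissue of 10 animals, collected by laser microdissection and pooled, so that arrays A and B of a group are separate pools and the error is the spread between pools. The sources used here give neither the age and sex of the animals nor the part of Gpr176 that was removed.

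The SCN of the hypothalamus is the master clock of mammals, and its neurons keep time through a transcriptional loop. CLOCK and BMAL1, the product of Arntl, act on E-box sequences to switch on Per, Cry, Nr1d1, Nr1d2 and Dbp genes, and the PER and CRY proteins then silence them. REV-ERB proteins (Nr1d1, Nr1d2) and ROR proteins act in opposite senses on ROR elements of Arntl and other genes of the night phase. Gpr176 encodes a receptor without a known ligand that is enriched in the SCN, couples to the Gz protein and is known to lower cyclic AMP.

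The array signal assigned to Gpr176 remained above the level filter in the knockout. Its log2 level was 8.08 and 8.02 in the CT6 pools and 8.42 and 8.56 in the CT18 pools of the knockout, against 9.37, 9.31, 9.73 and 9.87 in the wild type in the same order. All 4 knockout arrays lay below all 4 wild-type arrays, as the labels imply. Within the knockout this signal was higher at CT18 by 0.44 ± 0.0694 (SE of the fit; limma adjusted p = 0.00507), and the wild-type difference was 0.46. Where the probes lie relative to the deleted part is not stated, so this value describes the probe set and not a functional transcript.

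Markers of the SCN were measured in the knockout pools. Of 31 SCN identity genes 29 passed the level filter, which 62.5% of all genes measured did, among them Vip (11.59, 11.61, 11.70 and 11.78 in CT6 A, CT6 B, CT18 A and CT18 B) and the homeobox gene Six6 (9.56, 9.73, 9.66 and 9.75). All 10 neuronal markers passed, and none was called different between the times. Arrays A and B of a group correlated at r = 0.995 to 0.996 over the genes tested, a figure over genes and not over replicates. The deposited array medians lay between 7.34 and 7.39.

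The pools differed in their leptomeningeal markers, the genes of the membrane around the brain. Of 20 such markers 14 were tested and 0 were called. Their mean log2 level was 8.47 in the knockout CT6 A pool and 7.96 in CT6 B, against 7.78 and 7.82 in the CT18 pools, and the median difference between the times was -0.42. The wild-type arrays ranged from 7.77 to 8.45. The 6 remaining markers, Lum, Igfbp2, Ogn, Cdh1, Slc22a6 and Crabp2, lay under the level filter. The knockout CT6 A pool was the highest of the 8 and the wild-type CT18 A pool was close to it. For each list below whose count of calls changed without knockout CT6 A, the changed count or the genes that lost their call are given, and the part of this pool's make-up in them was not tested.

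**Figure D1:**
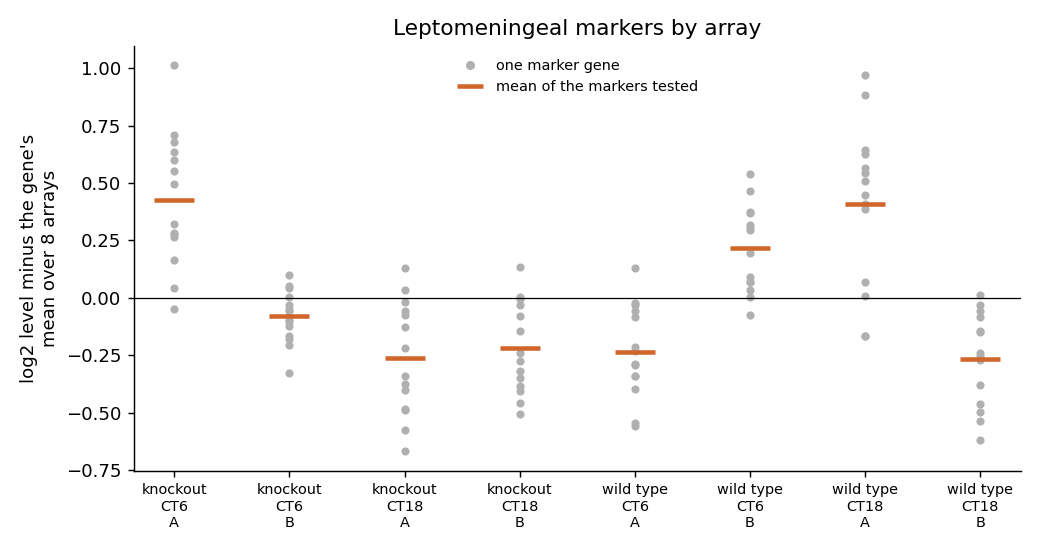
Each grey point is 1 of 14 leptomeningeal marker genes in 1 array, drawn as its log2 level minus its mean over the 8 arrays, and the orange bar is the mean of the markers. The knockout CT6 A pool and the wild-type CT18 A pool lie highest, and both knockout CT18 pools lie below 0.

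The question was which transcripts still differ between night and day in the SCN without Gpr176. In the knockout 891 genes differed between CT18 and CT6 at a limma adjusted p under 0.05 (Benjamini-Hochberg over all genes tested), which is 7.16% of 12452. Of these, 452 were higher at CT18 (3.63%) and 439 lower (3.53%). The falls were the larger changes: 24 genes fell and 4 rose by at least 2-fold, and 3 fell by at least 4-fold. At 1.5-fold the counts were 62 lower and 45 higher. Among called genes the median size was 0.33 and the smallest 0.20, while the median difference of all genes tested was 0.01. The CT6 and CT18 arrays did not overlap in 6533 genes (52.5%), and the 891 called genes were all among them. In bulk tissue, fewer cells of a type and less RNA per cell cannot be told apart.

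Leaving out 1 knockout array lowered the number of calls. The 891 calls became 438 and 508 when CT6 A or CT6 B was left out, and 382 and 392 when CT18 A or CT18 B was. Of the original calls, 409, 426, 358 and 368 remained in the same order. Centring each array on its median gave 590 calls (274 higher and 316 lower).

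Prok2, which encodes the secreted SCN output peptide prokineticin 2, had the largest fall. Its level was 9.52 and 9.77 at CT6 and 7.09 and 6.89 at CT18, a difference of -2.65 ± 0.0994 or 6.28-fold (limma adjusted p = 1.08e-06). Dusp4, a nuclear phosphatase of MAP kinases, went from 8.76 and 8.90 to 6.36 and 6.70 (-2.30 ± 0.101; adjusted p = 1.66e-06), so that its CT18 pools were below the mean level required for testing. Rasl11b, a small Ras-like GTPase, went from 10.33 and 10.36 to 8.19 and 8.06 (-2.22 ± 0.0762; adjusted p = 1.08e-06). In each of these genes the pools of a time differed by far less than the times did. The widest pair of pools was that of Dusp4 at CT18 (SD 0.241).

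The rises were led by another Ras-like protein. Rasd1, or Dexras1, a GTPase induced by dexamethasone and known from light input to the SCN, stood at 9.37 and 9.49 at CT6 and at 10.96 and 10.98 at CT18 (1.54 ± 0.0644; adjusted p = 1.59e-06). Tuba8, an alpha-tubulin, rose by 1.39 (8.76 and 8.91 to 10.20 and 10.26). Avpr1a, the V1a vasopressin receptor, rose by 1.28 (8.12 and 8.34 to 9.51 and 9.51) and Sertm1, a small membrane protein gene, by 1.13. The next rises were those of Fzd8, a Frizzled receptor (0.98), Tarsl2, a threonyl-tRNA synthetase (0.98), Ociad2 (0.94), Prr15 (0.90) and Hs3st1, a heparan sulfate sulfotransferase (0.90). Ildr1 (0.86), Galnt9, a glycosyltransferase gene (0.86), Akr1e1, an aldo-keto reductase gene (0.84), and Syt17, a synaptotagmin gene (0.81), complete the 15 largest with Dnajb1 and Prkg2, described below.

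Most core clock genes differed between the times. Of 19 tested, 15 were called (78.9%, against 7.16% of all genes), 13 of them lower and 2 higher at CT18. The 8 repressors had a median difference of -0.90, and 6 of them fell. Per1 went from 9.83 and 9.89 to 8.11 and 8.30 (-1.66 ± 0.0709; adjusted p = 1.59e-06), Per2 from 9.64 and 9.84 to 8.47 and 8.21 (-1.40 ± 0.0911; adjusted p = 2.47e-05), and Per3 from 9.28 and 9.29 to 8.68 and 8.67 (-0.61 ± 0.0531; adjusted p = 0.000141). Ciart, or CHRONO, which binds BMAL1 and represses it, fell furthest among them, from 10.43 and 10.34 to 8.32 and 8.46 (-1.99 ± 0.0840; adjusted p = 1.59e-06). A further Ciart probe set gave -1.87.

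The E-box repressors DEC1 and DEC2 fell by unequal amounts. Bhlhe41 (DEC2) fell from 9.78 and 9.94 to 8.76 and 8.60 (-1.18 ± 0.0802; adjusted p = 3.24e-05). Bhlhe40 (DEC1) fell from 8.71 and 8.79 to 8.13 and 8.14 (-0.61 ± 0.119; adjusted p = 0.0145), and its call was lost without knockout CT6 B, CT18 A or CT18 B (highest adjusted p 0.0813). The cryptochromes did not pass the test: Cry1 differed by -0.19 ± 0.0879 (adjusted p = 0.230) and Cry2 by -0.17 ± 0.0498 (adjusted p = 0.0796).

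Among the activators, Arntl rose from 8.51 and 8.55 to 9.17 and 9.17 (0.64 ± 0.0514; adjusted p = 8.28e-05). Its partner Clock was nearly level at 10.39, 10.51, 10.48 and 10.61 (0.09 ± 0.0696; adjusted p = 0.481), and Arntl2 differed by -0.12 (adjusted p = 0.267). Npas2 was not analysed here.

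The 4 nuclear receptors tested that act on ROR elements all fell at night. Nr1d1 (REV-ERBα) went from 11.65 and 11.77 to 10.72 and 10.63 (-1.03 ± 0.0686; adjusted p = 2.79e-05) and Nr1d2 (REV-ERBβ) from 10.94 and 11.16 to 9.98 and 10.04 (-1.04 ± 0.0861; adjusted p = 9.82e-05). Rora fell by 0.85 (10.97 and 11.02 to 10.13 and 10.17; adjusted p = 1.73e-05). Rorb fell by 0.43 (11.28 and 11.41 to 10.86 and 10.97; adjusted p = 0.00756), a call that was lost without knockout CT18 A (adjusted p = 0.0639). REV-ERB repressors and ROR activators thus fell together.

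The D-box factors split by their known sign. The activators of the PAR bZIP family fell: Dbp from 10.82 and 10.99 to 9.30 and 9.52 (-1.49 ± 0.0850; adjusted p = 1.07e-05), Hlf by 0.66 and Tef by 0.50. Nfil3 (E4BP4), the repressor that competes for D-boxes, rose from 7.02 and 7.21 to 7.80 and 7.89 (0.73 ± 0.0745; adjusted p = 0.000397).

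**Figure D2:**
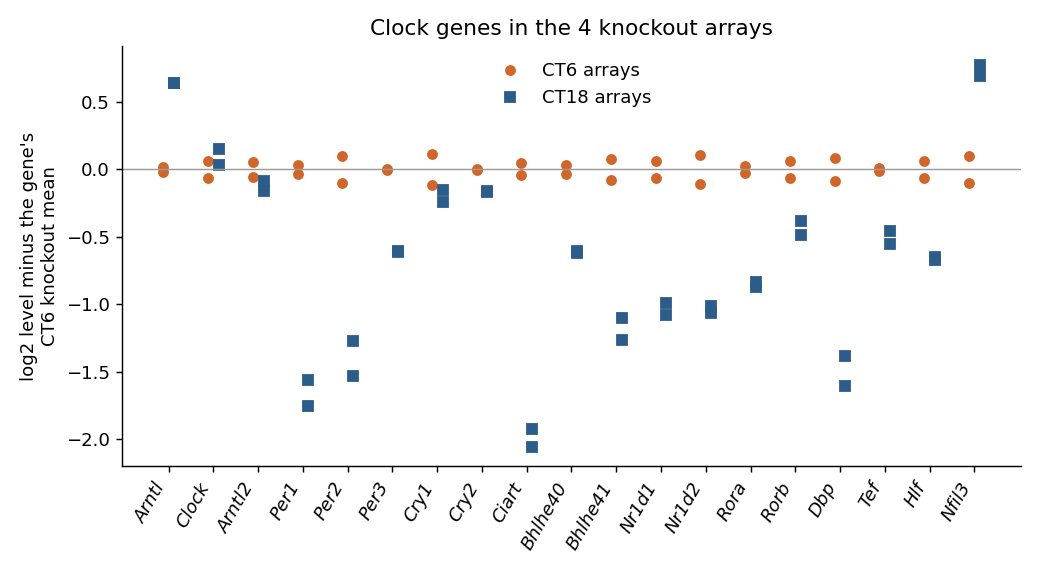
Each point is 1 knockout array, drawn as a gene's log2 level minus the mean of its 2 CT6 arrays, for the 19 clock genes tested. CT18 squares lie below the CT6 circles for the Per genes, Ciart, Bhlhe40, Bhlhe41, the REV-ERB and ROR genes, Dbp, Tef and Hlf. They also lie below them for Cry1, Cry2 and Arntl2, which were not called, and above them for Arntl and Nfil3.

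The sequence before the start of some named genes is shown to mark short motifs, some of which are known to act on clock genes. Whether the motifs have a part in the differences seen here was not tested. RefSeq windows of 300 bases (250 before the start and 50 after it, GRCm38.p6) were available for 9957 of the genes tested and for 97 of the 119 genes named by rule. The letters searched on both strands were CACGTG (E-box), TTATGTAA and TTACGTAA (D-box), TGACGTCA (CRE, the cyclic AMP response element), TAGGTCA and TGGGTCA (ROR element) and GAANNTTC (a heat shock core). Sequences run 5′ to 3′ along the gene with the matches in capitals. Ciart, on the minus strand of chr3:95882179-95882478, held 3 E-boxes, starting at -116, -58 and -44 from the start site. Prok2, on the minus strand of chr6:99726343-99726642, held an E-box at -135, and Dusp1, on the minus strand of chr17:26508423-26508722, a CRE at -143 followed by an E-box at -126. Per3, on the minus strand of chr4:151044616-151044915, held 2 D-boxes at -205 and -158. Arntl, on the plus strand of chr7:113207261-113207560, held a ROR element at 30 bases after this start, and another Arntl window held none of the motifs. Every window printed here held a match, so they do not stand for all of these genes. The windows of Dbp, Nr1d1, Nr1d2, Rgs16, Rasl11b, Fbxl21 and Chrna3, which all fell, held none of the motifs searched. An E-box was also present in Tuba8, which rose, and in Cry1, which was not called.
Ciart: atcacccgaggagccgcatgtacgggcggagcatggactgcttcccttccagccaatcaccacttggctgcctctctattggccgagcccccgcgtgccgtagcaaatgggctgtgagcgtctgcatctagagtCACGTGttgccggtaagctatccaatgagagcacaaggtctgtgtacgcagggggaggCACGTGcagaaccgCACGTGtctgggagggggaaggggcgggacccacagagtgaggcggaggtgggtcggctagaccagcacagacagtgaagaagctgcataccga
Prok2: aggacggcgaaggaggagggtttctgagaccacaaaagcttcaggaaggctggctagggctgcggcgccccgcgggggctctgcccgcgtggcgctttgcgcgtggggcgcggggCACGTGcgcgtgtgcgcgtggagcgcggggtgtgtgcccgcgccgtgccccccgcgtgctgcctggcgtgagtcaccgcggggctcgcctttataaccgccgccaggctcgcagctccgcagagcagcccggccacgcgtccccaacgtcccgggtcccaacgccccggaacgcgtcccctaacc
Dusp1: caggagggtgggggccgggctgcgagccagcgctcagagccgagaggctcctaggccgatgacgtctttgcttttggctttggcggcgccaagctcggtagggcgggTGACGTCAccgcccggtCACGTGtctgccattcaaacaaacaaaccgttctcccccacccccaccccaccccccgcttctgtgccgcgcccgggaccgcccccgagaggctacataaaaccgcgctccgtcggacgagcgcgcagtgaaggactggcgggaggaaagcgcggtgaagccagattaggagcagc
Per3: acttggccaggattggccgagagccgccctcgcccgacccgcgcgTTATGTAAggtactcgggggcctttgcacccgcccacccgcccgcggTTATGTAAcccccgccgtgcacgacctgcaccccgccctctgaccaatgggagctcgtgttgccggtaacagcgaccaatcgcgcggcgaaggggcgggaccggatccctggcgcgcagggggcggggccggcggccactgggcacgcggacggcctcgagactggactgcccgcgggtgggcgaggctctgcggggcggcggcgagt
Arntl: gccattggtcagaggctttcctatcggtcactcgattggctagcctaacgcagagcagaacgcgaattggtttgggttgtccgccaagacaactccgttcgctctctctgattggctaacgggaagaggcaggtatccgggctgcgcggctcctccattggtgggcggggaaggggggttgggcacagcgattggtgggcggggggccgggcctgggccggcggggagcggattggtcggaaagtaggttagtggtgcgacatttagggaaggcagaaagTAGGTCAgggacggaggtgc

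Across all windows the E-box was present in 11.4% of tested genes, in 13.3% of those called lower and in 9.39% of those called higher. Among the 19 genes with a window that fell by at least 2-fold it was in 5 (26.3%), and among 17 clock genes also in 5 (29.4%). The CRE was present in 8.88% of called lower genes (30 of 338), in 2.76% of called higher genes (10 of 362) and in 3.57% of all. ROR elements were at similar shares in all genes (6.11%), called higher (5.52%) and called lower genes (6.51%), and D-boxes were in 0.894% of all and 2.07% of called lower genes. These shares describe letters in a short window, and no test was made of them.

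Of 14 genes for kinases and the ubiquitin pathway that act on clock proteins, 2 fell and 0 rose (14.3%, against 7.16% of all genes). Fbxl21, an F-box protein that acts on cryptochromes, fell from 10.52 and 10.62 to 9.22 and 9.23 (-1.35 ± 0.0560; adjusted p = 1.59e-06). Prkaa2, a catalytic subunit of AMP-activated kinase, fell from 10.22 and 10.39 to 9.40 and 9.61 (-0.80; adjusted p = 0.000756). The casein kinase genes Csnk1d (0.13) and Csnk1e (-0.17) did not pass (adjusted p = 0.17 and 0.10). The list median was 0.01, close to that of all genes.

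Of 32 neuropeptide and granin precursors, which give rise to secreted peptides, 5 fell and 1 rose (18.8% called, against 7.16% of all genes). The list median was 0.01. Besides Prok2, Nmu (neuromedin U) fell from 8.36 and 8.25 to 7.08 and 6.88 (-1.32 ± 0.0849; adjusted p = 2.42e-05). Avp, the vasopressin precursor, fell from 11.74 and 11.83 to 10.96 and 10.86 (-0.87 ± 0.0599; adjusted p = 3.35e-05). Vgf, a granin-like precursor, fell from 9.57 and 9.54 to 8.62 and 8.60 (-0.95 ± 0.0682; adjusted p = 4.17e-05), and Chga, chromogranin A, by 0.40 (adjusted p = 0.00414). Cck, cholecystokinin, rose by 0.32 (adjusted p = 0.0190), and no member of the list was called higher without CT6 A, CT6 B or CT18 A of the knockout. The core and shell peptides Vip (0.14), Grp (0.01) and Nms (-0.12) did not pass (adjusted p = 0.16, 0.96 and 0.29).

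Of 13 genes for prohormone processing, 3 fell and 0 rose (23.1% called). Creb3l1, a membrane-bound transcription factor known to act on Avp, fell from 9.29 and 9.36 to 7.92 and 7.95 (-1.39 ± 0.0670; adjusted p = 3.23e-06). Its relative Creb3l2 fell by 0.33, a call lost without knockout CT18 A (adjusted p = 0.0659). Pcsk1, the prohormone convertase PC1/3, fell from 10.10 and 10.15 to 9.36 and 9.64 (-0.63; adjusted p = 0.00195). Cpe (0.10) and Pam (-0.02), which trim and amidate peptides, did not pass.

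Peptide receptors moved both ways. Of 29 peptide and melatonin receptors tested, 5 rose and 3 fell (27.6% called, against 7.16% of all genes), with a median of 0.00. Without knockout CT6 A the counts were 4 and 2, and without CT18 A 2 fell. The VIP receptor Vipr2 rose from 11.45 and 11.51 to 11.95 and 12.11 (0.55; adjusted p = 0.00225), and Nmbr, the neuromedin B receptor, from 7.30 and 7.37 to 8.00 and 7.88 (0.60; adjusted p = 0.00252). The melatonin receptor Mtnr1a rose by 0.55 (adjusted p = 0.00748), and Prokr2, the receptor of prokineticin 2, by 0.35 (adjusted p = 0.00875), while Prok2 itself fell. Ntsr1, a neurotensin receptor, fell from 8.25 and 8.02 to 7.06 and 6.68 (-1.27 ± 0.116; adjusted p = 0.000200), and the calcitonin receptor Calcr from 10.36 and 10.44 to 9.67 and 9.73 (-0.70; adjusted p = 0.000150). Cckar fell by 0.33 (adjusted p = 0.0161). Klb, beta-klotho, the co-receptor of endocrine FGFs, was also among the 15 largest falls (7.77 and 8.04 to 6.59 and 6.71, -1.25). The CT18 pools of Klb in both genotypes and the knockout CT18 B pool of Ntsr1 lay under the filter level of 6.82.

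Gpr176 signals through G proteins. Of 22 subunit genes tested, 1 fell and 0 rose, a share of 4.55% that is near the 7.16% of all genes. Gnb4, a beta subunit, went from 9.15 and 9.19 to 8.43 and 8.47 (-0.72 ± 0.0583; adjusted p = 8.75e-05). Gnaz, the Gz alpha subunit, stood at 9.17, 9.12, 9.20 and 9.38, a difference of 0.15 ± 0.0701 that did not pass (adjusted p = 0.257). The RGS proteins speed the inactivation of G proteins. Of 15 RGS regulators tested, which include Rgs7bp, a binding partner of RGS proteins, 4 fell and 4 rose (53.3%, against 7.16% of all genes). Rgs16, which acts on Gi-class subunits, fell from 12.29 and 12.32 to 10.97 and 10.94 (-1.35 ± 0.0506; adjusted p = 1.08e-06), and Rgs20, a relative that acts on Gz, from 7.49 and 7.49 to 7.07 and 7.12 (-0.40; adjusted p = 0.00326). Rgs2 rose from 8.59 and 8.62 to 9.18 and 9.09 (0.53; adjusted p = 0.000594).

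The smaller RGS calls depended on single pools. Rgs7 (-0.32) was not called without CT6 B, CT18 A or CT18 B (highest adjusted p 0.0582), and Rgs3 (0.33) without CT6 A, CT18 A or CT18 B (highest adjusted p 0.119). Another Rgs3 probe set gave 0.10. Rgs22 (-0.30), Rgs19 (0.24) and Rgs7bp (0.27) had adjusted p-values of 0.0252, 0.0372 and 0.0494. The number of RGS genes called higher fell from 4 to 1 without CT6 A, CT18 A or CT18 B and to 3 without CT6 B, and was 2 as deposited or with median centring. The number called lower fell from 4 to 2 without CT6 B, CT18 A or CT18 B.

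Enzymes of cyclic nucleotides, the second messengers below Gz and nitric oxide signalling, had 4 members lower and 2 higher of 33 (18.2% called, against 7.16% of all genes). The 2 higher calls became 1 without knockout CT6 A or CT18 B, and the 4 lower calls 3 without CT6 B, CT18 A or CT18 B. Of the 4 falls, 3 were phosphodiesterases. Pde10a fell from 9.60 and 9.67 to 8.91 and 8.91 (-0.73 ± 0.0524; adjusted p = 4.17e-05), Pde4d from 9.57 and 9.57 to 9.05 and 8.996 (-0.55; adjusted p = 0.00124) and Pde2a from 11.38 and 11.44 to 10.88 and 11.05 (-0.44; adjusted p = 0.00438). The other Pde4d probe sets gave -0.85 and -0.60. Pde7b rose by 0.40 (adjusted p = 0.00753), a call lost without CT6 A or CT18 B (highest adjusted p 0.0639). Prkg2, a cyclic GMP-dependent kinase, rose from 7.89 and 8.06 to 8.82 and 8.86 (0.86 ± 0.0703; adjusted p = 8.83e-05), and its dimmer probe set gave 0.35. Nos1, the neuronal nitric oxide synthase, fell by 0.30 (adjusted p = 0.0362). No adenylyl cyclase passed, the nearest being Adcy1 (0.34; adjusted p = 0.051).

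Negative regulators of MAP kinases included some of the largest falls. Of 15 MAP kinase phosphatases and sprouty proteins, 6 fell and 1 rose (46.7% called), and the list median was -0.17. Without knockout CT6 A 5 of them fell, and without CT18 A 2 rose. After Dusp4 came Dusp1 (9.79 and 9.89 to 8.72 and 8.96, -1.0 ± 0.0963; adjusted p = 0.000279), Dusp10 (-0.73; adjusted p = 7.05e-05) and Dusp16 (-0.69; adjusted p = 8.28e-05). The sprouty-related Spred3 fell by 0.57 (adjusted p = 0.00236) and Spry4 by 0.43 (adjusted p = 0.0161). Dusp7 rose by 0.42 (adjusted p = 0.00343). The promoter of Dusp1 is the one printed above with both a CRE and an E-box.

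Of 13 Ras-like small GTPases, 3 rose and 3 fell (46.2% called), Rasd1 and Rasl11b among them. The 3 rises became 2 without knockout CT6 A or CT18 A. Rasd2 fell from 8.24 and 8.31 to 7.77 and 7.82 (-0.48; adjusted p = 0.000712), opposite to its relative Rasd1. Gem, an inhibitor of calcium channels, fell from 7.40 and 7.59 to 6.67 and 6.93 (-0.69; adjusted p = 0.00275). Its knockout CT18 A pool lay under the filter level of 6.82. Rasl11a rose by 0.36 (adjusted p = 0.00444), opposite to Rasl11b, and Diras2 rose by 0.37 (adjusted p = 0.00740).

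Genes driven by neuronal activity or CREB had 9 members lower and 4 higher of 32 tested (40.6% called, against 7.16% of all genes), with a list median of -0.02. The 4 higher calls became 3 whichever knockout array was left out, and the 9 lower calls 7 to 9. The NR4A orphan nuclear receptors all fell: Nr4a1 from 9.11 and 9.20 to 7.93 and 7.91 (-1.23 ± 0.0757; adjusted p = 1.83e-05), Nr4a3 from 9.09 and 9.30 to 8.20 and 8.16 (-1.02; adjusted p = 0.000252) and Nr4a2 by 0.48 (adjusted p = 0.00185). Sik1, a kinase that restrains CREB coactivators, fell from 10.44 and 10.44 to 9.38 and 9.43 (-1.03 ± 0.0542; adjusted p = 6.27e-06). Fos fell by 0.68 (7.50 and 7.80 to 7.00 and 6.93; adjusted p = 0.00168) and Fosl2 by 0.52. Ppp1r15a (-0.46), Crem (-0.35) and Sik3 (-0.35) were the other falls.

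The rises in this list were those of Npas4 (6.67 and 6.76 to 7.14 and 7.26, 0.49; adjusted p = 0.00125), Egr1 (6.81 and 6.74 to 7.28 and 7.14, 0.44; adjusted p = 0.00411), Gadd45b (0.59; adjusted p = 0.00569) and Srf (0.24; adjusted p = 0.0453). Npas4 and Egr1 are immediate early genes like Fos, and they went the other way. Their knockout CT6 pools lay under the filter level of 6.82, and in the knockout only their CT18 pools lay above it. Arc, a synaptic immediate early gene, differed by 0.11 and did not pass (adjusted p = 0.261).

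Of 40 potassium channel genes, 5 rose and 3 fell (20% called). The 5 rises became 2 without CT6 A, 3 without CT18 A and 2 without CT18 B of the knockout, and the 3 falls became 1 without CT18 A. Kcnc2, a fast Kv3 channel, fell from 10.07 and 10.22 to 9.53 and 9.60 (-0.58; adjusted p = 0.000512). Kcnma1, the BK potassium channel that shapes SCN firing, rose from 9.82 and 9.85 to 10.24 and 10.27 (0.41; adjusted p = 0.00170). That call was lost when all probe sets of the gene were averaged (adjusted p = 0.0519), and the other set, at a level of 5.15, gave 0.00. Kcnd3, a Kv4 channel, rose by 0.34 (adjusted p = 0.00546), while the Kv4 partner genes Kcnip2 (-0.33) and Kcnip4 (-0.31) fell. Both of the latter lost their call without knockout CT18 A (adjusted p = 0.0566 and 0.0605).

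Of 39 calcium, sodium, HCN and TRP channel genes, 2 rose and 1 fell, a share of 7.69% that is near the 7.16% of all genes. Cacna1c, an L-type calcium channel, rose from 8.92 and 9.05 to 9.41 and 9.38 (0.41; adjusted p = 0.00370). Trpc6 (0.23; adjusted p = 0.0433) lost its call in 14 of 16 settings, every single array left out among them. Trpv2 (-0.27; adjusted p = 0.0164) lost it without CT6 A, CT6 B or CT18 B. Without knockout CT6 A 1 of these channel genes rose and 0 fell. Chrna3, a nicotinic receptor subunit, was the single call among 9 acetylcholine receptor genes and a large one, from 10.20 and 10.32 to 8.95 and 8.94 (-1.32 ± 0.0580; adjusted p = 1.66e-06).

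GABA and glutamate receptors had 3 members higher and 5 lower of 32 (25% called). Grin2b, an NMDA receptor subunit, rose from 9.67 and 9.77 to 10.15 and 10.09 (0.40; adjusted p = 0.00507), and Grin2a fell by 0.43 (adjusted p = 0.0142). The Grin2a call was lost without CT6 B or CT18 A, and that of Grin2c (0.36) without CT6 A, CT6 B or CT18 B. Gabrq (-0.29) and Gabre (-0.26), subunits of GABA-A receptors, lost their call whichever knockout array was left out. The 5 lower calls became 1, 0, 0 and 2 on leaving out, in turn, CT6 A, CT6 B, CT18 A and CT18 B, and the 3 higher calls became 1, 1, 2 and 1.

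Among 16 dopamine and monoamine genes, 2 rose and 1 fell (18.8% called). Slc6a3, the dopamine transporter, rose from 7.50 and 7.44 to 8.24 and 8.25 (0.77 ± 0.0526; adjusted p = 3.24e-05). Drd5, a dopamine receptor, rose from 7.03 and 7.12 to 7.79 and 7.80 (0.72; adjusted p = 0.000240). Maoa, the monoamine oxidase, fell by 0.40 (adjusted p = 0.00905), a call lost without knockout CT18 A (adjusted p = 0.0544).

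**Figure D3:**
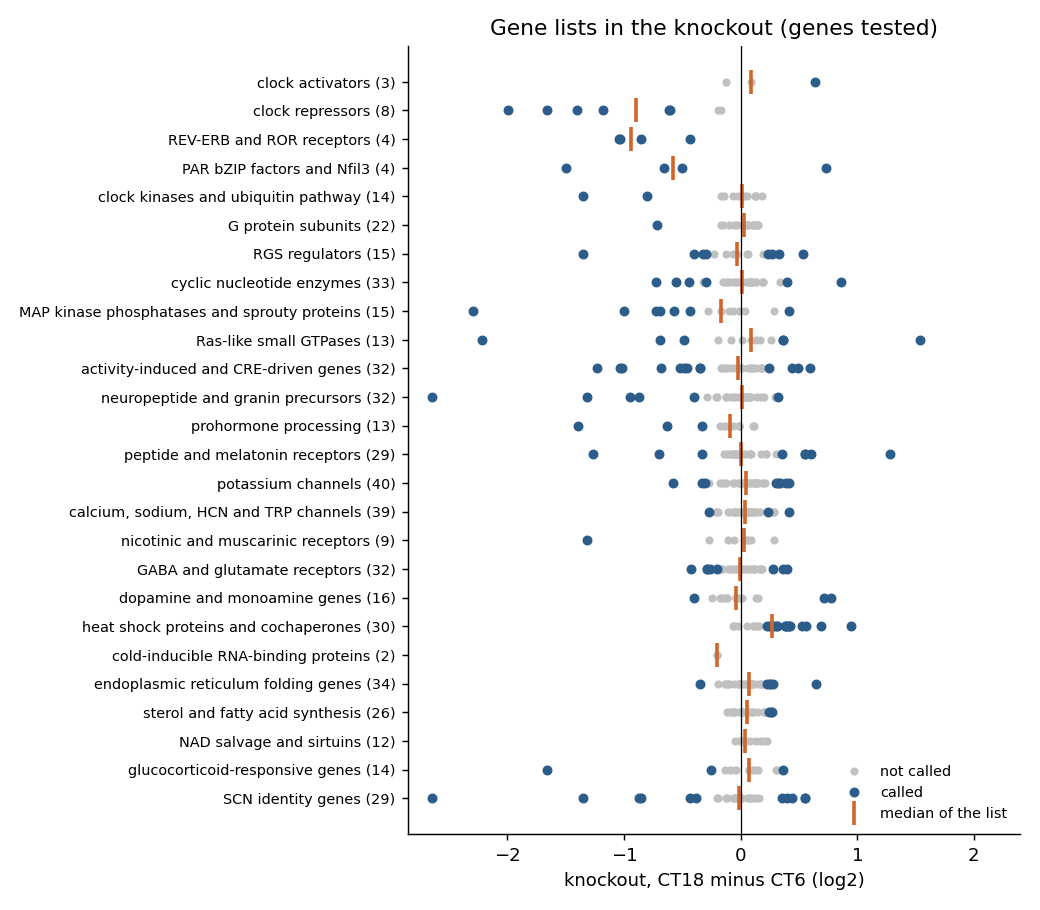
Each point is the knockout difference, CT18 minus CT6 in log2, of 1 tested gene in 26 gene lists, with called genes in blue and the list median as an orange bar. The medians of the repressor, REV-ERB and ROR, and PAR bZIP lists lie below 0, that of the heat shock list lies at 0.27, and most other medians lie near 0.

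Heat shock proteins and their cochaperones had 16 members higher at night and 0 lower of 30 tested (53.3% called, against 7.16% of all genes), and a list median of 0.27 against 0.01 for all genes. These proteins fold newly made and damaged proteins, and their transcripts are known to follow body temperature. Dnajb1, a cochaperone of HSP70, rose most, from 8.37 and 8.62 to 9.47 and 9.42 (0.95 ± 0.0944; adjusted p = 0.000354). Chordc1, an HSP90 cochaperone, went from 9.41 and 9.64 to 10.17 and 10.26 (0.69; adjusted p = 0.00125) and Hsph1 (HSP105) from 10.33 and 10.46 to 10.93 and 10.97 (0.56; adjusted p = 0.000616). Fkbp4 (0.52), Stip1 (0.43), Hspd1 (0.41) and Hspa2 (0.40) rose too, with adjusted p-values of 0.0019, 0.00111, 0.0017 and 0.00129. Of these, Hspd1 encodes the mitochondrial chaperonin HSP60, while most of the list is cytosolic.

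The number of heat shock genes called varied with the arrays used. It was 8, 10, 10 and 7 without CT6 A, CT6 B, CT18 A and CT18 B, 9 in a fit of the knockout arrays alone and 11 without a level filter. Bag3 (-0.02), Dnaja2 (-0.06) and Dnajb5 (-0.06) were the 3 tested members below 0, and none of them passed. Hspb1, the small heat shock protein HSP27, rose by 0.31 at an adjusted p of 0.04998, against 0.80 in the wild type. For Hspb1 the difference between the genotypes was not called. The constitutive chaperone Hspa8 stood at 13.03, 13.12, 13.17 and 13.26 and did not pass (0.14; adjusted p = 0.20).

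The heat shock core GAANNTTC was found in the windows of 11 of 26 genes of this list (42.3%), against 6.80% of all tested genes, 6.91% of those called higher and 9.17% of those called lower. Chordc1, on the plus strand of chr9:18292017-18292316, is shown because it held 2 of them side by side, at -4 and 6 from the start site.
Chordc1: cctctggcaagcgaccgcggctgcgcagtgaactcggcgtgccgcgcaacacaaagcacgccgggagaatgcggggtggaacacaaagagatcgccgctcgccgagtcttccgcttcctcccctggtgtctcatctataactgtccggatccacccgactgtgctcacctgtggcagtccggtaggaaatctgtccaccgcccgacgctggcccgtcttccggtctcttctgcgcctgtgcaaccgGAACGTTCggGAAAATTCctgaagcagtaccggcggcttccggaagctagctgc

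**Figure D4:**
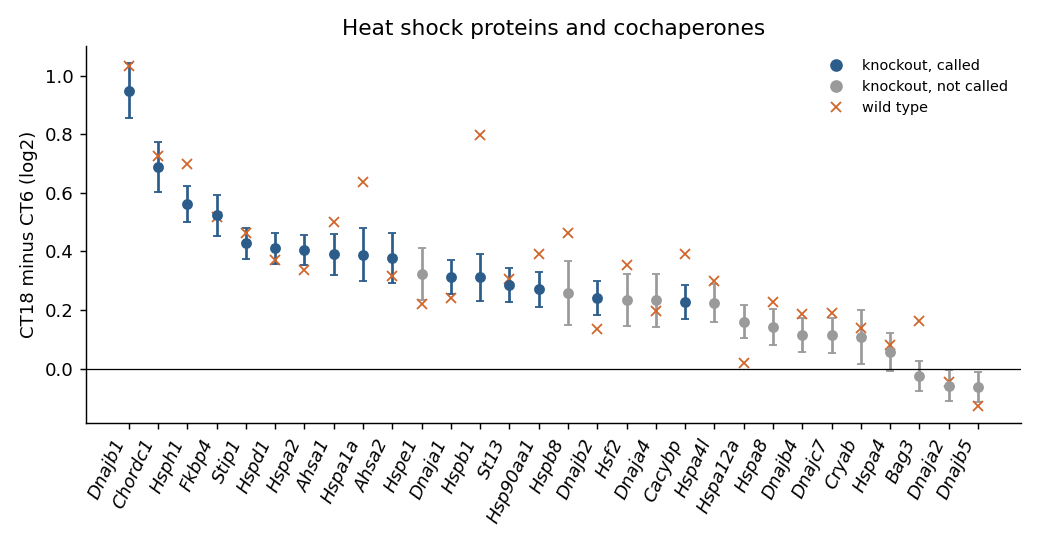
Points are the knockout differences, CT18 minus CT6 in log2 with the SE of the fit as bars, of the 30 heat shock proteins and cochaperones tested, with called genes in blue, and crosses are the wild-type differences. All but 3 knockout points lie above 0, and Dnajb1 is highest at 0.95.

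Cold-inducible RNA-binding proteins, which follow temperature in the other sense, did not pass in the knockout. Rbm3 stood at 10.50, 10.39, 10.16 and 10.32 and Cirbp at 9.85, 9.68, 9.53 and 9.60, a difference of about -0.20 for each (adjusted p = 0.10 and 0.11). Both were called lower in the wild type, with differences of -0.39 and -0.40. The difference between the genotypes was not called for either.

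In the endoplasmic reticulum, 5 of 34 folding genes rose and 1 fell (17.6% called), with a list median of 0.07. Sdf2l1, a cochaperone of the resident HSP70, rose from 8.79 and 8.77 to 9.47 and 9.38 (0.65 ± 0.0556; adjusted p = 0.000133). Herpud1, a component of the degradation machinery, fell by 0.35 (adjusted p = 0.00644), a call lost without knockout CT18 A. The rises of Hspa5 (BiP, 0.25), Creld2 (0.28) and Manf (0.26) were lost as deposited, with median centring and whichever knockout array was left out. The remaining rise, of a gene not named here, was lost there too. Sdf2l1 was thus the single rise in those settings.

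Sqle (0.26), Fdft1 (0.26) and Mvk (0.25), enzymes of cholesterol synthesis, were the 3 calls among 26 sterol and fatty acid genes (11.5%, against 7.16% of all genes). None of the 3 was called as deposited, with median centring, with no level filter or when any knockout array was left out. None of 12 genes of NAD salvage and the sirtuins passed, and Nampt, the rate-limiting salvage enzyme, stood at 9.25, 9.28, 9.26 and 9.28. Of 14 glucocorticoid-responsive genes 3 were called (21.4%): Ddit4 rose by 0.36 (adjusted p = 0.00580) and Per1 and Mt2 fell. Without knockout CT6 A 2 rose and 1 fell. The Mt2 call (-0.25; adjusted p = 0.0183) was lost as deposited, with median centring, with the knockout arrays alone and whichever knockout array was left out.

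SCN identity genes moved both ways. Of 29 tested, 5 rose and 6 fell (37.9%, against 7.16% of all genes), with differences from -2.65 to 0.55 and a median of -0.02. Without knockout CT6 A the counts were 4 and 5, and without CT18 A 5 rose and 4 fell. Lhx1, a LIM homeobox regulator of SCN coupling, rose from 9.45 and 9.57 to 9.92 and 9.89 (0.40; adjusted p = 0.00478), and Rxrg, a retinoid receptor gene, fell by 0.38 (adjusted p = 0.0292). The remaining 9 calls are genes already described, such as Rgs16, Prok2, Avp and Vipr2. Six6 (0.06), Zfhx3 (0.09) and Syt10 (0.01) did not pass.

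Among markers of other cells, calls were 14.3% of the astrocyte list, 7.69% of the oligodendrocyte list, 15.4% of the endothelial and mural list and 18.2% of the ependymal and tanycyte list, against 7.16% of all genes. The leptomeningeal list, with 0 calls, had the lowest median of the marker lists at -0.42, as given above. Fabp7, the brain-type fatty acid binding protein, which marks astrocytes, fell from 12.49 and 12.46 to 11.68 and 11.62 (-0.83 ± 0.0604; adjusted p = 4.61e-05), as 1 of 2 calls among 14 astrocyte markers. The other, Slc7a10 (-0.30), was lost without CT6 A, CT6 B or CT18 A of the knockout and with the knockout arrays alone. The median of the astrocyte list was -0.04. Opalin, a myelin protein gene, fell from 7.58 and 7.61 to 6.76 and 6.93 (-0.75; adjusted p = 0.00168), as the single call among 13 oligodendrocyte markers. That list had a median of -0.14 and means of 9.27 and 9.12 at CT6 and 8.96 and 9.04 at CT18. The knockout CT18 A pool of Opalin lay under the filter level of 6.82.

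Acta2, smooth muscle actin, fell from 9.56 and 9.30 to 8.95 and 8.87 (-0.53; adjusted p = 0.00809) and was not called without CT18 B (adjusted p = 0.0660). Tek (-0.30), the other of 2 calls among 13 endothelial and mural markers, was lost whichever knockout array was left out, as deposited, with median centring and with no level filter. Acta2, like the leptomeningeal genes, was highest in CT6 A. Microglial (10 tested), choroid plexus (3), blood cell (1) and magnocellular and neighbouring hypothalamic markers (8) had 0 calls. Of 11 ependymal and tanycyte markers, Hdc rose (0.43; adjusted p = 0.0302) and Rarres2 fell (-0.29; adjusted p = 0.0221). The Rarres2 call was lost whichever knockout array was left out, and that of Hdc without CT6 A, CT18 A or CT18 B of the knockout, without either wild-type CT6 array, with no level filter and with the knockout arrays alone.

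Set beside the wild type, the night-day differences of the knockout had mostly the same direction. In the wild type 864 genes were called (6.94%), and 531 were called in both genotypes, 312 higher and 219 lower, all in the same direction. These are 59.6% of the knockout calls and 61.5% of the wild-type calls. Of the 360 genes called in the knockout and not in the wild type, 339 had the same sign there (94.2%), against 68.2% of all genes tested (8489). Across the 891 called genes the differences of the genotypes correlated at r = 0.960, and over all tested genes at 0.756. The 891 genes were chosen for a clear knockout difference, which by itself raises their correlation above that of all genes. The 360 genes were chosen by the calls too, so their share of equal signs is also shaped by the calling. The genotypes share no array, but they share the normalization and the variance estimate.

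**Figure D5:**
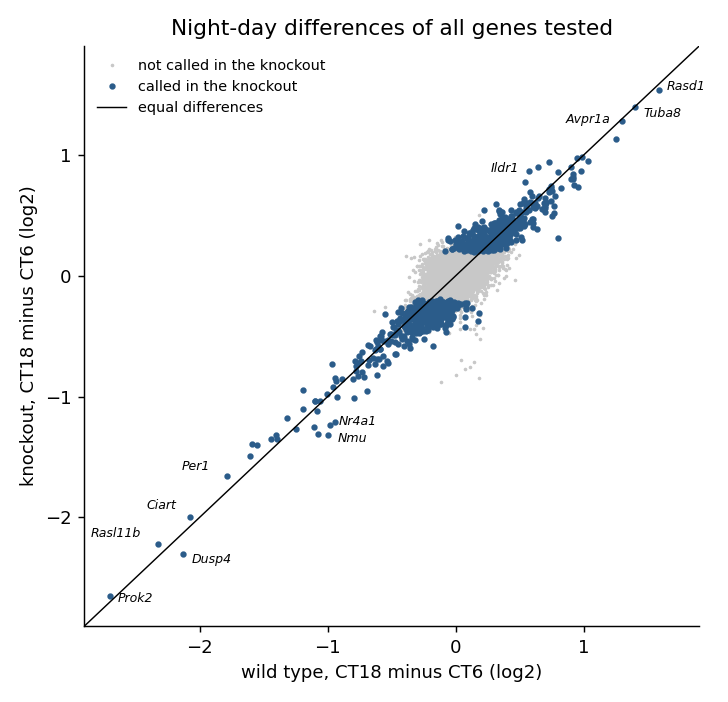
Each point is 1 of 12452 genes, with the wild-type difference on the x axis and the knockout difference on the y axis, both CT18 minus CT6 in log2, and blue points are called in the knockout. The largest changes, from Prok2 at -2.65 to Rasd1 at 1.54, lie near the line of equal differences.

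A direct test of the difference between genotypes called 0 genes (0% of 12452; lowest limma adjusted p = 0.944). At an unadjusted p under 0.05 there were 605 genes (4.86%), and none of the alternative settings called a gene either. The median SE of this difference was 0.0899, against 0.0636 for the knockout difference. The genes with the smallest unadjusted p were Prp2, Pcdhb10, Efcab10, Aph1b and Arc. Pcdhb10, a protocadherin, was lower at night in the knockout (7.28 and 7.30 to 6.88 and 6.95, -0.38), a call lost whichever knockout array was left out, and was at 0.17 in the wild type. Efcab10 went from 7.50 and 7.49 to 7.00 and 7.06 (-0.47; adjusted p = 0.00153), against -0.08 in the wild type.

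Among the largest knockout changes, the ratio of the knockout to the wild-type difference ranged from 0.877 for Creb3l1 to 1.33 for Nmu, taken over called genes that changed by at least 2-fold. Bhlhe41 (0.894), Sertm1 (0.902), Per2 (0.906) and Per1 (0.927) had the next-lowest ratios. Map3k19 (1.29), Nr4a3 (1.28), Nr4a1 (1.26) and Strip2 (1.22) followed Nmu at the other end. The 2-fold limit was set on the knockout difference alone, so the range is cut at its low end. Vgf, at -0.95 in the knockout and -1.19 in the wild type (ratio 0.794), was left out by it. Nmu differed by -1.32 in the knockout and -0.99 in the wild type, and Nr4a1 by -1.23 and -0.98. Neither difference between genotypes passed after adjustment (adjusted p = 0.944 for each). The wild-type CT18 arrays of Nmu stood at 6.73 and 6.66, under the filter level of 6.82. Its CT6 mean was 7.69 in the wild type and 8.30 in the knockout, and the part of these levels in its ratio was not tested.

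In 15 of the 19 clock genes tested the absolute difference was smaller in the knockout than in the wild type, against 50.5% of all genes tested. Of the 15 clock genes called, all of them called in the wild type too, it was smaller in 12. The share among all genes called in both genotypes was 53.5%. It was 31.9% among all knockout calls and 71.4% among all wild-type calls. Those 2 shares are shaped by the calling itself, which favours genes with the larger difference in the genotype used. These counts describe the list, and no test was made of them. The margins were small beside their errors: Per1 differed between genotypes by 0.13 ± 0.10, Per2 by 0.15 ± 0.129 and Bhlhe41 by 0.14 ± 0.113. The smallest unadjusted p of the 19 was 0.0615, for Nfil3 (0.73 in the knockout and 0.96 in the wild type; adjusted p = 0.944). No clock gene passed the test of that difference with 2 pools per group.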

How the data were processed

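RNA of 4 Gpr176 knockout and 4 wild-type SCN pools was measured on whole-transcript arrays. Column-purified RNA was amplified with a whole-transcript kit and labelled with biotin, per the labels' protocols. The authors deposited 1 table of log2 values for 28853 probe sets, and the sources used here do not give how they corrected, summarised and normalized the signals. Lower quartiles of the 8 deposited columns spread over 0.139, more than the limit of 0.1 set for this step, so the columns were quantile normalized, which hides any change shared by most genes.

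The platform annotation gave 1 symbol to 21789 probe sets, several to 1621 and none to 5443. Of the first, 21698 were matched by Entrez number to RefSeq (GRCm38.p6), and 0 symbols changed. A gene was read from its brightest probe set (999 genes had more than 1). Genes with a mean under the 40th percentile of all probe sets (log2 6.82; 7486 genes) were left out. Limma 3.58.1 in R 4.3.3 fitted a mean per group to all 8 arrays with moderated variances (4 residual and 5.58 prior degrees of freedom), and genes were called at a Benjamini-Hochberg adjusted p under 0.05. Values after ± are standard errors of the fit. Precision is limited by having 2 arrays per group. The fit was tested on simulated data with known changes.

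The members, the 36 gene lists and the naming rule were chosen with earlier results of these data known. The rule names Gpr176, the clock genes of the first 4 lists, the 15 largest rises and 15 largest falls, the called members of a list with the smallest p (at most 5), the 5 smallest p of the interaction, and the 5 highest and 5 lowest ratios between the genotypes among called changes of at least 1 log2 unit. It skips provisional symbols and genes of 4 families (Mir, Snor, Vmn, Olfr). Other list members are named for contrast or to complete a count and were chosen after their values were seen. Alternatives changed the normalization, the filter, the probe set rule, the variance model, the arrays and a block for the letters A and B.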

Additional observations from a re-analysis of the deposited data

Results flagged for a closer look

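Probe sets that the platform annotation does not tie to a gene symbol were outside the comparison, and some of them differed between night and day in the knockout. Of 2300 such probe sets above the level filter, 38 were called (1.65%; 12 higher and 26 lower at CT18), against 574 of 13769 probe sets with 1 symbol in the same fit (4.17%). They were fitted together with all other probe sets in a limma fit added after the data were seen. The clearest was probe set 10534667, at 8.96 and 8.93 in the CT6 pools and 7.40 and 7.48 in the CT18 pools, a fall of 1.51 on the log2 scale (limma adjusted p = 5.83e-05). Probe set 10345675 rose by 0.78 (8.53 and 8.69 to 9.41 and 9.36; adjusted p = 0.00160). Probe sets with several symbols had 31 of 1243 called (2.49%). Groups of 2 arrays are too small for a search for single outlying arrays.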

How the results depend on the processing

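The 891 knockout calls stayed between 608 and 1104 with the values as deposited, no level filter, a 60th percentile filter, averaged probe sets, either other variance model and the knockout arrays alone. Centring on array medians gave 590 calls, 274 of them higher, and the knockout arrays alone gave 298 higher. A fit of all probe sets above the level filter, in place of 1 per gene, called 574 of 13769 probe sets with 1 symbol (4.17%). Leaving out 1 array gave 382 to 795 knockout calls, 163 to 400 higher and 159 to 395 lower, and 311 to 827 wild-type calls. The share of higher calls, 50.7% at first, then ran from 41.6% without knockout CT18 B to 61.6% without CT6 B. The interaction had 0 calls in every setting, with 272 to 1065 genes at an unadjusted p under 0.05 and a lowest adjusted p of 0.394, without wild-type CT18 B. Of 112 named genes called, 82 kept the call in all settings that tested them, and 0 of 119 changed sign while called. The letters A and B are shared across groups, but deviations of equal letters correlated between -0.22 and 0.26 over genes, so the letters are not taken as pairs. A replicate block gave 780 knockout calls and 765 wild-type calls. The lone array of a group was assumed to vary like the others where its partner was left out. Small changes are the limit of 2 pools per time, since the smallest called difference was 0.20 on the log2 scale.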
